A study of Rattus norvegicus with 129 samples.

Results

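Liver gene expression was compared between rats given Wy-14643 for 7 days and rats given vehicle for the same time. Wy-14643 is a synthetic agonist of the nuclear receptor PPARα and a classic peroxisome proliferator of rodent liver. The 6 arrays of this comparison were taken by their titles, which name the compound, the day and the rat, out of 129 arrays of rat liver in the series. The treated group was rats 12, 13 and 14 at 60 mg/kg/day, and the vehicle group was rats 33, 34 and 35 on carboxymethyl cellulose. All were male Wistar Hanover rats with 1 array each, killed in the morning after the last dose. The labels give neither the age of these rats nor the route of dosing. The same study held rats treated for 1 day (rats 03, 04 and 05) and for 3 days (rats 06, 07 and 08), each with 3 vehicle rats of its own day. Their labels state the same dose except that of rat 06, which states none, and this rat was grouped by its title. These 12 arrays were used to share the estimate of spread and to ask whether the effect at 7 days differed from the earlier ones. A further set, male Sprague-Dawley rats of 10 weeks given 20 mg/kg/day of the perfluorinated acid PFOA or its vehicle, Alkamuls EL-620, by gavage (3 each, duration not in the labels), is set beside the 7 day values at the end. In that study 3 more rats were given the perfluorinated acid PFOS at 10 mg/kg/day. Their arrays shared in its normalisation and its estimate of spread only.

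PPARα is the fatty acid sensor of hepatocytes. On binding a fatty acid or a fibrate-like drug it pairs with RXR and sits on direct repeats of the half-site AGGTCA, spaced by a single base, near genes that take up, activate, shorten and burn fatty acids. In rats and mice, weeks of treatment enlarge the liver and multiply its peroxisomes. Peroxisomes shorten very long and branched acyl-CoAs, the endoplasmic reticulum hydroxylates the far (omega) end of fatty acids through Cyp4a enzymes, and mitochondria carry out the bulk of beta-oxidation after import through the carnitine shuttle.

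Each array gave an intensity per probe set. The 18 arrays of the study were quantile normalised together, values below 0 were raised to 0, and limma tested log2(value + 16) with all 6 groups in 1 fit. The brightest probe set of a gene on average stood for it, which gave 10411 genes, and a gene was called changed where the p adjusted by Benjamini-Hochberg over all 15866 probe sets was under 0.05. A log2 change below is the difference of the means of log2(value + 16) with its standard error, and it understates the change of genes near 0. Levels are normalised intensities, given in the order of the rat numbers above, and cannot be compared between genes.

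Hepatocyte markers were bright in both groups. The summed intensity of 11 hepatocyte markers was 111330 to 117206 in Wy-14643 rats, against 127289 to 131094 in vehicle rats, so the groups did not overlap. Array means lay between 409.7 and 579.5 in Wy-14643 rats and between 348.4 and 486.3 in vehicle rats before normalisation. The ratio of 3′ to 5′ control probe sets, which reads RNA integrity and labelling, did not overlap between the groups. For Gapdh it was 1.42 to 1.57 in Wy-14643 rats, against 1.77 to 1.91 in vehicle rats, and for beta-actin 1.53 to 1.75 in Wy-14643 rats, against 2.33 to 3.17 in vehicle rats. The Gapdh ratio was lower with Wy-14643 than with vehicle at 1 and 3 days as well, and its part in the results was not tested. No 2 arrays held identical values, and the highest correlation between arrays was 0.979.

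After 7 days 740 genes were higher with Wy-14643 (7.11 percent of those tested) and 783 were lower (7.52 percent), 1523 in all (14.6 percent). On probe sets the counts were 1043 higher (6.57 percent) and 1030 lower (6.49 percent), together 13.1 percent. The counts of gene lists at 7 days below are to be read against the shares over all genes, 7.11 percent higher and 7.52 percent lower. Some lists lay near these shares. Large rises outnumbered large falls: 26 genes rose and 4 fell by at least 3 on the log2 scale, an 8-fold change, some of them genes near or at 0 in a group, whose fitted size depends on the 16 added. At the 2-fold level the counts were 211 and 179. All of these changes are relative to the rest of the array. On the values as deposited, without normalisation, the median change over all probe sets was 0.234 and 1129 probe sets were higher and 132 lower (89.5 percent of the calls higher, against 50.3 percent after quantile normalisation and 47.7 percent after median scaling). The plot of change against adjusted p holds the quantile normalised genes, with the thioesterase Acot1 at its right edge and the apolipoprotein Apoa4 at its left.

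**Figure D1:**
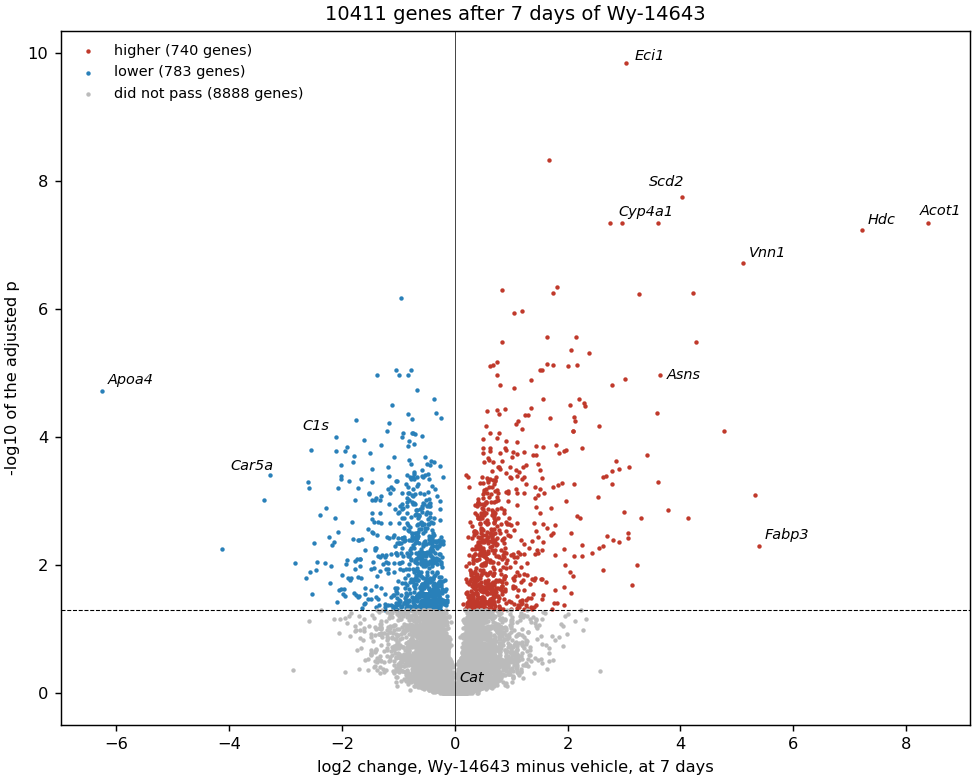
Log2 change (Wy-14643 minus vehicle at 7 days, x axis) against -log10 of the adjusted p (y axis) for 10411 genes; red points are the 740 higher genes, blue the 783 lower genes and grey those that did not pass, with the dashed line at an adjusted p of 0.05. The rises reach 8.39 (Acot1) and the falls -6.25 (Apoa4), and Cat lies close to 0.

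Of 13 measured receptors, partners and coactivators, 1 rose and 0 fell, beside 7.11 and 7.52 percent of all genes (median log2 change 0.061, against 0 over all genes). The riser was the corepressor gene Ncor1, whose intensity was 639.8, 496 and 549.8 in the Wy-14643 rats, against 459.9, 429 and 432 in the vehicle rats (log2 change 0.33 ± 0.092, adjusted p = 0.0323), and with 1 of the 6 rats left out in turn it lost the call in 5 of 6 fits, all but that without Wy-14643 rat 13. Rxra, the usual partner of PPARα, had 224, 123 and 135 in the Wy-14643 rats, against 48.7, 106 and 97.9 in the vehicle rats, all 3 treated values above the vehicle values, yet it missed the threshold (log2 change 0.83 ± 0.30, adjusted p = 0.0917). The probe set of Ppara was listed at 0 on all 6 arrays, so it gives no level for the receptor itself.

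Acyl-CoA thioesterases, which split acyl-CoA into free fatty acid and coenzyme A, held the largest change in the data. Of 10 measured, 6 rose and 1 fell, with a median log2 change of 1.84. Acot1, the cytosolic long-chain enzyme, had 7029, 7090.5 and 7535 in the Wy-14643 rats, against 7.46, 10.2 and 0.131 in the vehicle rats. The gene was near 0 in every vehicle rat and among the bright signals of the array in every treated rat (log2 change 8.39 ± 0.38, adjusted p = 4.54e-08). Acot2, its mitochondrial neighbour and near copy, had 1343, 902 and 1488 in the Wy-14643 rats, against 54.9, 47.4 and 40.7 in the vehicle rats (log2 change 4.28 ± 0.31), and how far the probe sets of such near copies read each other was not tested. The peroxisomal enzyme Acot4 had 1555, 1623 and 2783 in the Wy-14643 rats, against 151, 125 and 158 in the vehicle rats (log2 change 3.59 ± 0.35). A second peroxisomal enzyme, Acot8, had 1324, 1316 and 1196 in the Wy-14643 rats, against 210.3, 332 and 262 in the vehicle rats (log2 change 2.21 ± 0.20), and Acot12, which acts on acetyl-CoA, had 1562, 1255 and 1179 in the Wy-14643 rats, against 442, 495 and 465 in the vehicle rats (log2 change 1.47 ± 0.19). Treated and vehicle rats did not overlap in any of these 5 genes. All 5 were already called as risen, so this separation adds no further support. The probe set used for Acot7 rose (2.25 ± 0.26) while another of the same gene was at -0.80, so that gene is uncertain. The fall was that of Baat, which also belongs to bile acid conjugation (log2 change -0.29 ± 0.089), and the call was lost with any 1 of the 6 rats left out.

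The promoters of 5 risen genes named in the text, 3 of them thioesterases, are shown because they hold the direct repeat AGGTCANAGGTCA with at most 1 of its 12 fixed letters changed. Each run is the RefSeq promoter of the rat build GRCr8, 250 bases before the transcription start to 50 after it, on the strand of the gene, with the matched 13 bases in capitals (a match on the opposite strand reads as TGACCTNTGACCT).
Acot4: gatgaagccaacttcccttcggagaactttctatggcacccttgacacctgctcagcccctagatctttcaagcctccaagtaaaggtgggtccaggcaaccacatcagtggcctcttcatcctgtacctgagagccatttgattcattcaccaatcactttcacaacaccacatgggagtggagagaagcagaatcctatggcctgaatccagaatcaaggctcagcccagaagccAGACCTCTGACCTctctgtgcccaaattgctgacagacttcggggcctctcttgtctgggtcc
Acot8: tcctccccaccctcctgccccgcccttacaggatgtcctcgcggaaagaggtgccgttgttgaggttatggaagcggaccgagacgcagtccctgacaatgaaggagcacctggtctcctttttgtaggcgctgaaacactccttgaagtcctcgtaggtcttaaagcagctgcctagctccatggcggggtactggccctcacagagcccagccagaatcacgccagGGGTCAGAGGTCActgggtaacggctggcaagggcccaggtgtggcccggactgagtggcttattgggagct
Acot12: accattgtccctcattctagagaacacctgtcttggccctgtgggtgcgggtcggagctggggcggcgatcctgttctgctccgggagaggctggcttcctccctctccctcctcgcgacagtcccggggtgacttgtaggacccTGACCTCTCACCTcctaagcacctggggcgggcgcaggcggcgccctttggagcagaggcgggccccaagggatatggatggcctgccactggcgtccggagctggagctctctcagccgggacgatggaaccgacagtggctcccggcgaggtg
Acadvl: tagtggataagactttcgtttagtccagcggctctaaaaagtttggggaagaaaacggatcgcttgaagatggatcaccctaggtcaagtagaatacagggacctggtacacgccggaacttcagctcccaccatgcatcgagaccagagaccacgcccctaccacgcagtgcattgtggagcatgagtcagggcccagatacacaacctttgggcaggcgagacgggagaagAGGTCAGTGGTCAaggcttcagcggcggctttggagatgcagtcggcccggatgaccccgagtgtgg
Fabp1: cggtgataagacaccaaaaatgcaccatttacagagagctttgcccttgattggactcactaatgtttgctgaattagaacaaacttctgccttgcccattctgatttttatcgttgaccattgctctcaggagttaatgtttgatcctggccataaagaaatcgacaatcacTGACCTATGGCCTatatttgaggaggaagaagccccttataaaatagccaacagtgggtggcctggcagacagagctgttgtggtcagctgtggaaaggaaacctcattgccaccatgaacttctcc

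The Acot4 window is chr6:109399604-109399903 (plus strand) and its match, on the opposite strand, begins 13 bases before the start. The Acot8 window is chr3:173962139-173962438 (minus strand), with a match on the gene's own strand that begins 22 bases before the start. For Acot12 the window is chr2:24721709-24722008 (plus strand) and the match, on the opposite strand, begins 105 bases before it. The window of Acadvl is chr10:55236656-55236955 (minus strand), with a match on its own strand 17 bases before the start, and that of Fabp1 is chr4:104749090-104749389 (plus strand), with a match on the opposite strand 77 bases before it. Such matches are rare in windows of this length. They were found in 127 of 27457 promoters (0.463 percent), in 44 of the 8610 of genes tested on this array (0.511 percent), in 8 of the 629 promoters of genes higher at 7 days (1.27 percent) and in 2 of the 653 of genes lower (0.306 percent). With up to 2 letters changed the shares were 3.71 percent of all promoters, 2.87 percent of those of the genes tested, 4.13 percent of the higher and 4.29 percent of the lower genes. A match in letters is a description of the window and shows no binding.

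Peroxisomal fatty acid oxidation rose in 13 of 22 measured genes and fell in 3 (median log2 change 0.65). Ehhadh, the bifunctional hydratase and dehydrogenase of the pathway, had 15581, 13972 and 15109 in the Wy-14643 rats, against 1504, 2638 and 2422 in the vehicle rats (log2 change 2.80 ± 0.24, adjusted p = 1.57e-05). Ech1, an isomerase of unsaturated acyl-CoA, had 11123, 12598 and 11443 in the Wy-14643 rats, against 1612, 1512 and 1319 in the vehicle rats (log2 change 2.97 ± 0.13). Treated and vehicle rats were far apart in both genes. Crat, which hands acetyl and short acyl groups to carnitine, had 3000.3, 2831 and 2644 in the Wy-14643 rats, against 91.3, 0 and 189 in the vehicle rats (log2 change 5.33 ± 0.80), with a vehicle rat at 0. Crot, which does the same for medium chains leaving the peroxisome, had 6992, 5525 and 6961 in the Wy-14643 rats, against 1523, 1158 and 1867 in the vehicle rats (log2 change 2.10 ± 0.23). The epoxide hydrolase Ephx2 rose by 2.39 ± 0.18 and the coenzyme A hydrolase Nudt7 by 1.94 ± 0.23. The second bifunctional enzyme, Hsd17b4, rose less, with 5991, 6002 and 5436 in the Wy-14643 rats, against 3414, 3334 and 3511 in the vehicle rats (log2 change 0.76 ± 0.11). The 3 falls, named after their values were seen, were those of Hao2, a hydroxyacid oxidase (-1.38 ± 0.26), Amacr, a racemase of branched acyl-CoA (-0.88 ± 0.24), and Acox2, the branched-chain acyl-CoA oxidase (-0.68 ± 0.16). Only 1 of this list was still called lower without Wy-14643 rat 13 or vehicle rat 35.

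Peroxisomes themselves showed a narrower change. Of 13 measured genes of assembly and membrane, 4 rose and 0 fell. Pex11a, which elongates peroxisomes before they divide, had 3312, 3344 and 3538 in the Wy-14643 rats, against 358, 284 and 382 in the vehicle rats (log2 change 3.27 ± 0.20, adjusted p = 5.93e-07). Pex19, the carrier of membrane proteins, had 938, 781 and 897 in the Wy-14643 rats, against 295, 272 and 297 in the vehicle rats (log2 change 1.54 ± 0.13). The fission GTPase Dnm1l (1.54 ± 0.43) and Pex3 (0.38 ± 0.11) rose too, both at low intensity, but each lost the call in 5 of the 6 fits with 1 rat left out. The count of rises was 2 without Wy-14643 rat 12 or vehicle rat 35, and 1 gene was called lower without Wy-14643 rat 13 or vehicle rat 33. Cat, catalase, the marker enzyme that breaks down the hydrogen peroxide made by peroxisomal oxidases, did not pass. Its intensity was 8508, 7811 and 8125 in the Wy-14643 rats, against 8881, 7989 and 7966 in the vehicle rats, and the log2 change of -0.022 ± 0.043 had a 95 percent interval of -0.12 to 0.072, far short of the changes of the oxidation genes. Of 25 antioxidant genes, 3 rose (Gpx4, Txn2 and Prdx3) and 2 fell, the metallothionein Mt2A (-1.86 ± 0.46) and Prdx4 (-0.40 ± 0.075), a count that was 1 without Wy-14643 rat 13 or vehicle rat 34. Over all genes 7.11 percent rose and 7.52 percent fell, so these counts do not set the list apart.

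Omega oxidation was led by the fatty acid hydroxylases Cyp4a1 and Cyp4a3. Cyp4a1 had 12258, 10613 and 12133 in the Wy-14643 rats, against 1690.0, 1496 and 1984 in the vehicle rats (log2 change 2.75 ± 0.13, adjusted p = 4.54e-08). Cyp4a3 had 11382, 12315 and 11855 in the Wy-14643 rats, against 3389, 3361 and 3372 in the vehicle rats (log2 change 1.81 ± 0.10). The arachidonate epoxygenases Cyp2j4 (1.48 ± 0.22) and Cyp2j3 (0.75 ± 0.13) also rose. In the Cyp4f family the directions were mixed. Cyp4f5 rose (0.84 ± 0.23), but it was not called without any 1 of the Wy-14643 rats or without vehicle rat 35. Cyp4f6 fell, with 754, 837 and 742 in the Wy-14643 rats, against 1762, 1447 and 1312 in the vehicle rats (log2 change -0.93 ± 0.20). Cyp4f1, named after its value was seen, fell too (-0.57 ± 0.094). In all 6 of 14 rose and 2 fell.

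**Figure D2:**
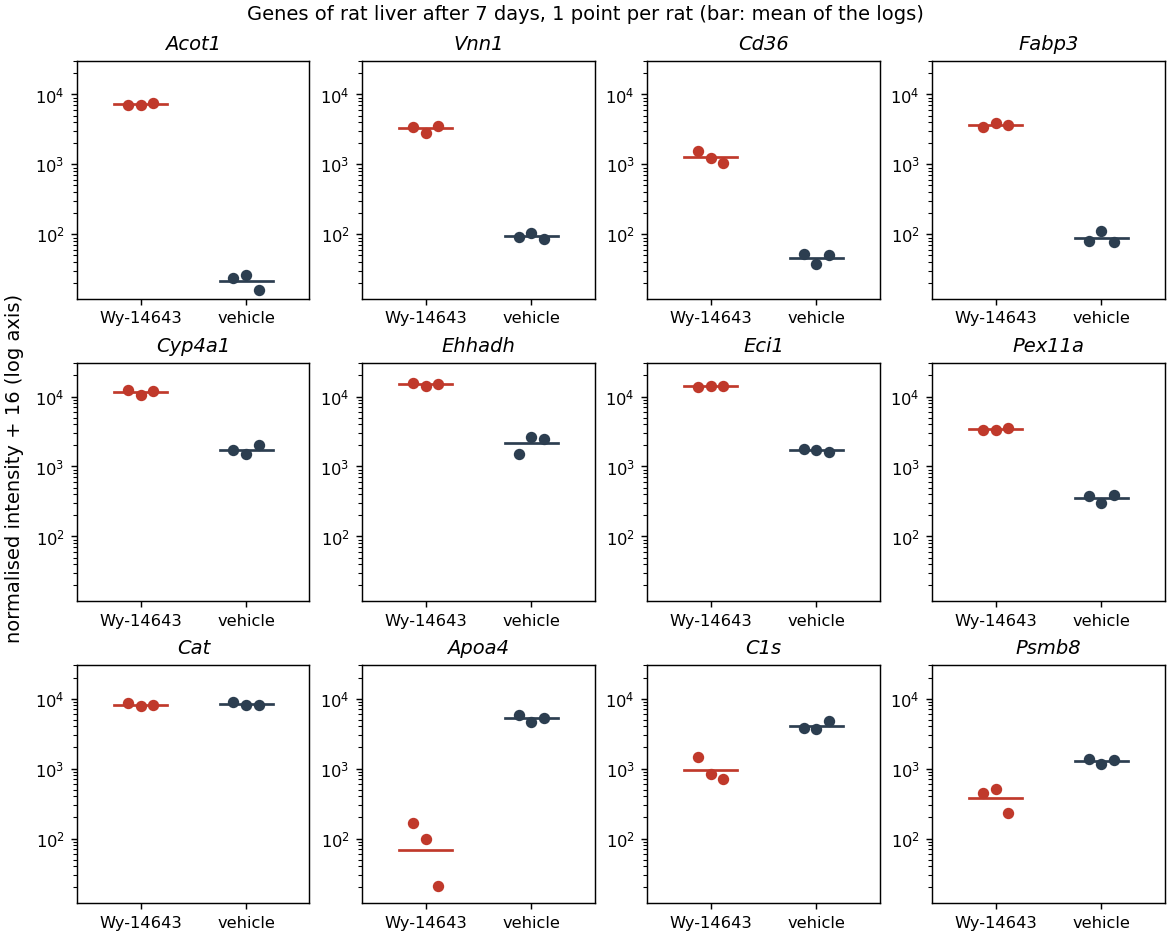
Normalised intensity + 16 on a log axis (y) for 12 genes at 7 days, 1 point per rat, Wy-14643 in red at the left and vehicle in dark blue at the right, with a bar at the mean of the logs. The groups are apart in every panel except that of Cat, where they overlap.

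Mitochondrial beta-oxidation had the largest share of risen genes of all the lists. Of 20 measured genes 16 rose and 1 fell, with a median log2 change of 0.63. Eci1, an enoyl-CoA isomerase for unsaturated fatty acids, had 13508, 14292 and 14292 in the Wy-14643 rats, against 1761, 1713 and 1599 in the vehicle rats (log2 change 3.04 ± 0.075, adjusted p = 1.44e-10). Decr1, which reduces dienoyl-CoA, had 9944, 10310.0 and 10698 in the Wy-14643 rats, against 2526, 2517 and 2584 in the vehicle rats (log2 change 2.01 ± 0.16). The trifunctional protein rose in both subunits. Hadha had 7167, 7301 and 6849 in the Wy-14643 rats, against 2203, 2251 and 2176 in the vehicle rats (log2 change 1.68 ± 0.058), and Hadhb rose by 1.74 ± 0.10. The very-long-chain dehydrogenase Acadvl, whose promoter is printed above, had 3952, 4089.8 and 3558 in the Wy-14643 rats, against 1674, 1697 and 1692 in the vehicle rats (log2 change 1.19 ± 0.076). The thiolase Acaa2 rose by 1.37 ± 0.27. The 1 fall, named after its value was seen, was that of Echdc3 (-0.44 ± 0.093).

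The carnitine shuttle rose in 7 of 11 genes, from uptake to the inner membrane, and fell in 1. Slc22a5, the plasma membrane carnitine importer, had 441, 629 and 619 in the Wy-14643 rats, against 168, 135 and 134 in the vehicle rats (log2 change 1.83 ± 0.26). Cpt1a, the liver form of the outer membrane transferase and the main control point of the pathway, had 3104, 3252 and 2762 in the Wy-14643 rats, against 1250.4, 1531 and 1559 in the vehicle rats (log2 change 1.07 ± 0.23). Cpt1b, the form known from muscle, had 1050.5, 1008 and 899 in the Wy-14643 rats, against 124, 176 and 139 in the vehicle rats (log2 change 2.63 ± 0.53). The carrier Slc25a20 (1.63 ± 0.12) and the inner transferase Cpt2, which had 4140.5, 5116 and 4103 in the Wy-14643 rats, against 968, 1005 and 721 in the vehicle rats (log2 change 2.30 ± 0.22), rose as well. So did Acacb, the carboxylase that makes the inhibitor of Cpt1 (2.26 ± 0.45). The fall, named after its value was seen, was that of the aldehyde dehydrogenase Aldh9a1, of carnitine synthesis, with 4477, 4155 and 4089.8 in the Wy-14643 rats, against 5088, 5209.7 and 5337 in the vehicle rats (log2 change -0.30 ± 0.078), and it was not called without Wy-14643 rat 13 or 14 or vehicle rat 34 or 35. Of 8 ketone body genes 3 rose: the thiolase Acat1, which had 8781, 9944 and 8816 in the Wy-14643 rats, against 3012, 3149.5 and 2630.5 in the vehicle rats (log2 change 1.64 ± 0.13), and the transporters Slc16a6 (1.26 ± 0.16) and Slc16a1 (0.66 ± 0.19), the last of which lost its call with any 1 rat left out.

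Genes that bring fatty acids into the cell and hold them there gave some of the largest rises beside falls in the same family. Cd36, the fatty acid translocase, had 1551, 1232 and 1049 in the Wy-14643 rats, against 36.3, 21.8 and 34.9 in the vehicle rats (log2 change 4.78 ± 0.51, adjusted p = 7.97e-05). Fabp3, the fatty acid binding protein of heart, had 3452, 3907 and 3699.6 in the Wy-14643 rats, against 64.6, 94.6 and 61.2 in the vehicle rats (log2 change 5.39 ± 1.07, adjusted p = 0.00499). The fit shares its error over all 6 groups, and the SD of the log2 values of Fabp3 was 0.089 and 0.28 in the Wy-14643 and vehicle rats at 7 days but 3.11 in the Wy-14643 rats at 3 days. Fabp1, the abundant liver form, had 19848, 18685 and 19848 in the Wy-14643 rats, against 15392, 13647 and 15392 in the vehicle rats, a rise of 0.40 ± 0.066 near the top of the intensity range. The lipase Lpl, low in adult liver, had 1025, 692 and 349 in the Wy-14643 rats, against 66.2, 110.0 and 45.5 in the vehicle rats (log2 change 2.91 ± 0.38). The acyl-CoA synthetase Acsl3 rose by 2.10 ± 0.23. Both transporters that fell were Slc27 members: Slc27a5, which also activates bile acids, had 1828, 1124 and 1015 in the Wy-14643 rats, against 3846, 4266 and 5514 in the vehicle rats (log2 change -1.80 ± 0.23), and Slc27a4 had 171.4, 100.6 and 149 in the Wy-14643 rats, against 542, 539 and 430.4 in the vehicle rats (log2 change -1.75 ± 0.18). In all 8 of 22 rose and 2 fell.

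Lipid droplet genes rose in 7 of 21, on the sides of storage and of breakdown, and fell in 1. The droplet protein Cidea had 1423, 768 and 1289 in the Wy-14643 rats, against 164, 116 and 149 in the vehicle rats (log2 change 2.85 ± 0.36). The triglyceride lipase Pnpla2 had 415, 607 and 344 in the Wy-14643 rats, against 23.5, 60.3 and 37.1 in the vehicle rats (log2 change 3.08 ± 0.57), and the monoglyceride lipase Mgll had 3959, 3659 and 2566 in the Wy-14643 rats, against 425, 589.6 and 679.6 in the vehicle rats (log2 change 2.56 ± 0.27). One of the 4 probe sets of Mgll stood at 0. Plin2, the coat protein of droplets, rose by 0.86 ± 0.16 on its brighter probe set and was at -0.11 on the other. The fall, named after its value was seen, was that of the esterase Aadac, with 1187, 951 and 894 in the Wy-14643 rats, against 1529.6, 1460.2 and 1615 in the vehicle rats (log2 change -0.60 ± 0.10).

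Among 29 further genes known as PPARα targets, 16 rose and 4 fell (median log2 change 1.03). Vnn1, a pantetheinase that releases cysteamine, had 3469, 2802 and 3531 in the Wy-14643 rats, against 76.8, 90.3 and 69.9 in the vehicle rats (log2 change 5.11 ± 0.27, adjusted p = 1.93e-07). Me1, the malic enzyme that makes NADPH, had 4367, 5046 and 3705 in the Wy-14643 rats, against 361, 224 and 488 in the vehicle rats (log2 change 3.61 ± 0.50). The hepatokine gene Fgf21 had 271, 296 and 227 in the Wy-14643 rats, against 78.1, 32.9 and 72.9 in the vehicle rats (log2 change 1.91 ± 0.27). Pdk4, which shuts pyruvate out of oxidation, had 628, 1380.4 and 533 in the Wy-14643 rats, against 188, 241 and 221 in the vehicle rats (log2 change 1.77 ± 0.47), with rat 13 the highest of the treated rats. That call was lost without Wy-14643 rat 13 or any 1 of the vehicle rats. Angptl4, a secreted inhibitor of lipoprotein lipase, rose by only 0.87 ± 0.24. The glycerol channels diverged: Aqp7 had 279, 363 and 202 in the Wy-14643 rats, against 41.5, 0.23 and 60.0 in the vehicle rats (log2 change 2.81 ± 0.54), Aqp3 had 97.6, 132 and 89.8 in the Wy-14643 rats and was listed at 0 in every vehicle rat (adjusted p = 0.00444), and Aqp9, the main hepatocyte form, named after its value was seen, fell (-1.87 ± 0.26). Ucp3, an uncoupling protein, had 174, 279 and 299 in the Wy-14643 rats, against 65.7, 102 and 179 in the vehicle rats and did not pass (adjusted p = 0.218).

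Some of the largest rises lie outside these lists. Hdc, the histidine decarboxylase that makes histamine, had 1797, 1751 and 4253 in the Wy-14643 rats and was listed at 0 in all vehicle rats (adjusted p = 5.93e-08). Aldh1a1, which oxidises retinal, had 6555, 6141 and 5884 in the Wy-14643 rats, against 371, 298 and 285 in the vehicle rats (log2 change 4.22 ± 0.25). Aig1, a hydrolase of branched fatty acid esters, had 2591, 2479 and 3078 in the Wy-14643 rats, against 218, 235 and 172 in the vehicle rats (log2 change 3.61 ± 0.17). Nim1k, a protein kinase, had 395, 570.4 and 535 in the Wy-14643 rats, against 0, 17.6 and 29.1 in the vehicle rats (log2 change 4.14 ± 0.70). The torsin gene Tor3a rose by 3.30 ± 0.56. Krtap1-5 had 169.7, 148 and 148 in treated rats and was listed at 0 in all vehicle rats. Pdlim7 was also listed at 0 in every vehicle rat, but treated rat 13 stood far below the other treated rats (237, 38.1 and 229), and a second probe set of that gene changed by only 0.21.

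Fatty acid synthesis and desaturation rose in part: 9 of 22 genes rose and 1 fell. Scd2, a stearoyl-CoA desaturase, had 1962, 1502 and 1169.6 in the Wy-14643 rats, against 78, 77.4 and 75.6 in the vehicle rats (log2 change 4.04 ± 0.16, adjusted p = 1.8e-08), whereas the main liver desaturase Scd had 11781, 12194 and 10374 in the Wy-14643 rats, against 8992, 5884 and 6961 in the vehicle rats and did not pass (0.67 ± 0.39, adjusted p = 0.321). The elongase Elovl6 had 575, 701 and 574 in the Wy-14643 rats, against 81.7, 20.8 and 86.5 in the vehicle rats (log2 change 3.13 ± 0.79), and the delta-6 desaturase Fads2 had 7562, 7929.7 and 5014 in the Wy-14643 rats, against 1753, 1636 and 1690.0 in the vehicle rats (log2 change 1.98 ± 0.23). The synthase Fasn had 3099, 3146 and 2002 in the Wy-14643 rats, against 1817, 1263 and 1542 in the vehicle rats, above vehicle in every treated rat, but missed the threshold (0.81 ± 0.29, adjusted p = 0.0938). Srebf1, the transcription factor of this programme, was likewise not called (0.53 ± 0.29, adjusted p = 0.284). Pklr, the liver pyruvate kinase that feeds synthesis from sugar, fell, with 694, 628 and 369 in the Wy-14643 rats, against 2189.6, 1383 and 1920.1 in the vehicle rats (log2 change -1.70 ± 0.33). Of 21 cholesterol synthesis genes 3 rose (Insig1, Fdps and Lss, by 0.89, 0.82 and 0.65) and 1 fell (Tm7sf2, -1.49). Without Wy-14643 rat 13 only 1 of that list rose, and the fall was not called without Wy-14643 rat 14 or vehicle rat 34 or 35.

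Genes of the citric acid cycle list and of the respiratory chain rose in part, most by smaller amounts. Of 19 citric acid cycle genes 10 rose and 0 fell, among them Suclg1, a succinyl-CoA ligase subunit, which had 3758, 3307 and 3288 in the Wy-14643 rats, against 1602, 1606 and 1726 in the vehicle rats (log2 change 1.06 ± 0.094), and Aco1, the cytosolic aconitase, at 1.56 ± 0.18. Of 52 genes of the respiratory chain and ATP synthase 16 rose and 1 fell, with a median of 0.15, and 5 rose after median scaling and 10 without vehicle rat 35, and 0 fell without Wy-14643 rat 12 or any 1 of the vehicle rats. Cytochrome c1, Cyc1, had 3372, 2951 and 3052 in the Wy-14643 rats, against 1873, 2060.3 and 1718 in the vehicle rats (log2 change 0.73 ± 0.099), the largest change in that list.

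Protein folding and breakdown split by compartment. Of 22 heat shock genes of cytosol and mitochondria 13 rose and 0 fell (median 0.46). The small heat shock gene Hspb1 had 765, 986 and 1134 in the Wy-14643 rats, against 86.6, 108 and 11.3 in the vehicle rats (log2 change 3.78 ± 0.61). The mitochondrial chaperonin Hspd1 had 10259, 10123 and 10045 in the Wy-14643 rats, against 5250.3, 5964 and 5761 in the vehicle rats (log2 change 0.84 ± 0.061), and Hspa9, the mitochondrial Hsp70, rose by 1.02 ± 0.12. The heat-inducible Hspa1a itself did not pass (0.89 ± 0.51, adjusted p = 0.314). In the endoplasmic reticulum 10 of 28 genes fell and 1 rose (median -0.39), and on the values as deposited 1 fell and 1 rose. The falls were 6 without Wy-14643 rat 13 or vehicle rat 33. Sdf2l1, a chaperone cofactor, had 654, 775 and 764 in the Wy-14643 rats, against 1929, 2046 and 1853 in the vehicle rats (log2 change -1.39 ± 0.21), and the disulfide isomerase Pdia3 had 3967, 3397 and 3435 in the Wy-14643 rats, against 5170.0, 4912 and 5096 in the vehicle rats (log2 change -0.49 ± 0.088). The riser was Trib3, a pseudokinase of the amino acid and stress response (1.03 ± 0.22).

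The proteasome rose in 19 of 33 subunits (median 0.42), with Psma1 at 1953, 1547 and 1664 in the Wy-14643 rats, against 1028, 860.0 and 846 in the vehicle rats (log2 change 0.90 ± 0.12). The 2 subunits that fell were Psmb8 and Psmb10, which replace the standard catalytic subunits in the immunoproteasome. Psmb8 had 427, 498 and 218 in the Wy-14643 rats, against 1358, 1157 and 1311 in the vehicle rats (log2 change -1.77 ± 0.27, adjusted p = 0.000958), and Psmb10 had 111, 172 and 133 in the Wy-14643 rats, against 382, 259 and 241 in the vehicle rats (log2 change -0.99 ± 0.20). The third immunoproteasome subunit, Psmb9, overlapped between the groups (-0.45 ± 0.34, adjusted p = 0.46). Summed macrophage markers were lower in the same rats (3382 to 3665, against 5357 to 8565 in vehicle rats), lymphocyte markers overlapped (280 to 664, against 472 to 734), and their part in this fall was not tested. Of 35 cytosolic ribosomal proteins 7 rose and 0 fell (3 rose after median scaling, 21 without Wy-14643 rat 12, and 4 without Wy-14643 rat 14 or vehicle rat 35), and such genes have many near-identical copies that a probe set may read.

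**Figure D3:**
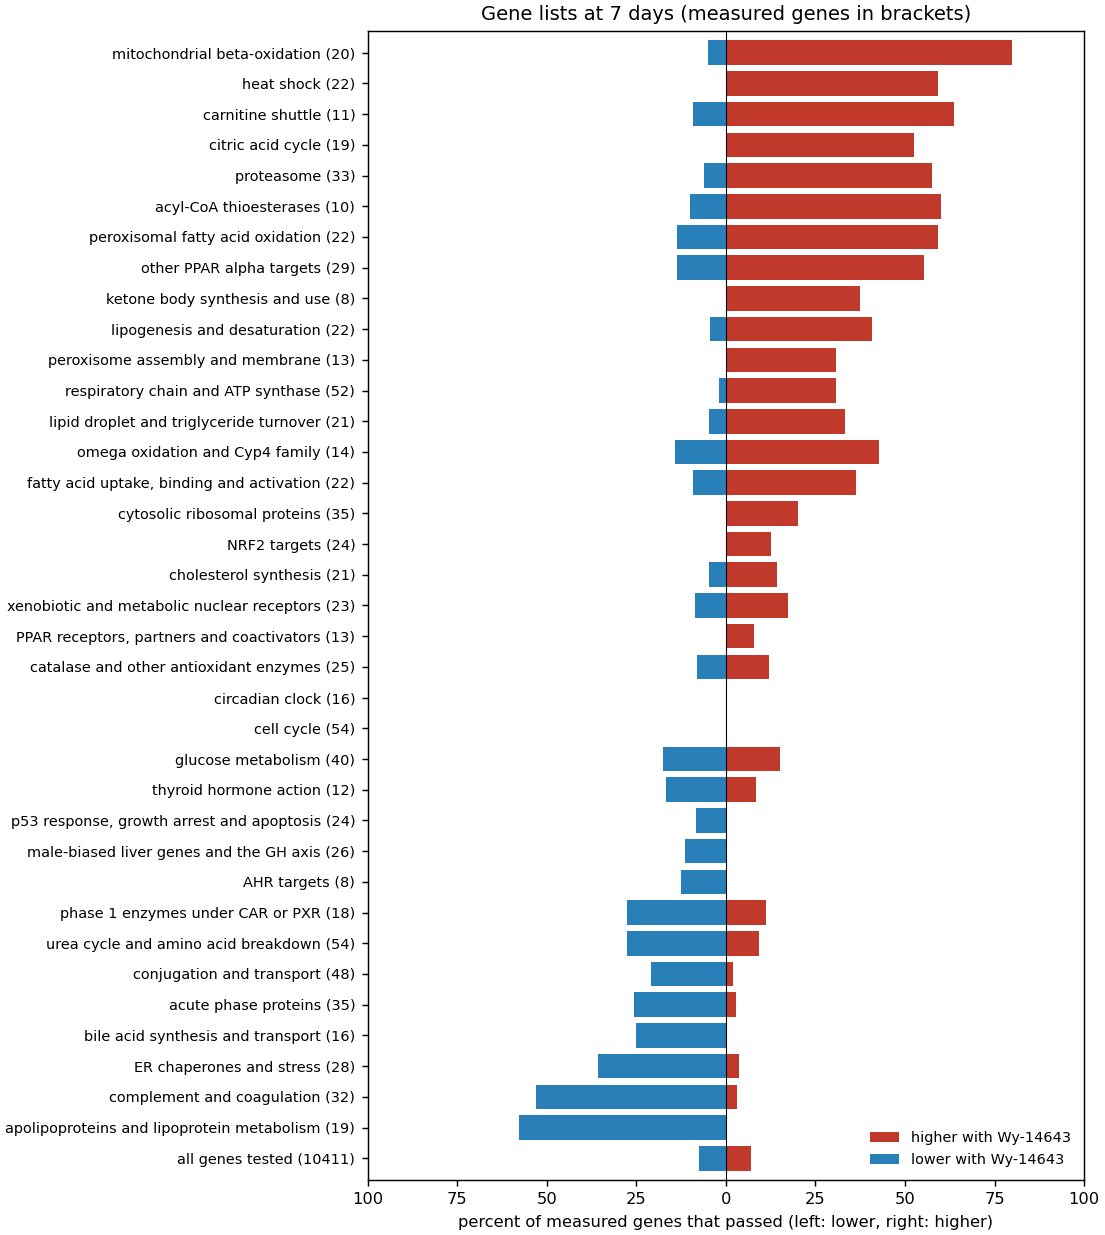
Percent of the measured genes of each list that were higher (red, to the right) or lower (blue, to the left) with Wy-14643 at 7 days, with the number measured in brackets and all 10411 genes in the bottom row. Mitochondrial beta-oxidation (16 of 20 higher) stands at the top and apolipoproteins (11 of 19 lower) stand just above all genes.

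Among the falls the apolipoproteins stood out. Of 19 genes of lipoproteins 11 fell and 0 rose (median -0.40), and on the values as deposited 6 fell. Apoa4, a component of chylomicrons and high density lipoprotein, had 148, 81.5 and 4.63 in the Wy-14643 rats, against 5869, 4586 and 5328 in the vehicle rats (log2 change -6.25 ± 0.56, adjusted p = 1.89e-05). It was the largest fall of any called gene, and the treated rats differed among themselves, rat 14 being near 0. Apoa5, which promotes clearance of triglyceride, had 2232, 1549 and 1492 in the Wy-14643 rats, against 4525, 5644 and 4686 in the vehicle rats (log2 change -1.50 ± 0.18). Apoa2 had 6367, 5125 and 3711 in the Wy-14643 rats, against 11382, 11595 and 11781 in the vehicle rats (log2 change -1.23 ± 0.28), and Apoa1, the main protein of high density lipoprotein, had 5666, 5618 and 4543 in the Wy-14643 rats, against 8952, 10310.0 and 9393 in the vehicle rats (log2 change -0.86 ± 0.12). Apoc3, an inhibitor of triglyceride lipolysis that fibrates are known to lower, had 8174, 8359.8 and 8271 in the Wy-14643 rats, against 14566, 13404 and 14292 in the vehicle rats (log2 change -0.77 ± 0.063). Apoc4 (-1.46 ± 0.19) and Apom (-1.19 ± 0.15) fell too.

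Genes of secreted plasma proteins fell with them. Of 32 complement and coagulation genes 17 fell and 1 rose (median -0.45), and on the values as deposited 3 fell. C1s and C1r, the proteases of the first complement component, had the largest falls of the list. C1s had 1448, 813 and 689 in the Wy-14643 rats, against 3792, 3638 and 4833 in the vehicle rats (log2 change -2.10 ± 0.23), and C1r had 1024, 987 and 743 in the Wy-14643 rats, against 2907, 4155 and 4305 in the vehicle rats (log2 change -2.02 ± 0.26). Complement factor I, Cfi, had 4486, 4219 and 4140.5 in the Wy-14643 rats, against 8781, 8036 and 8781 in the vehicle rats (log2 change -0.99 ± 0.084), and coagulation factor V, F5, fell too (log2 change -1.17 ± 0.16). The riser was Tfpi, an inhibitor of coagulation (0.94 ± 0.14). Of 35 acute phase genes 9 fell and 1 rose, with 19 falls after median scaling and 1 on the values as deposited. Apcs, serum amyloid P, had 4514, 3379 and 4081 in the Wy-14643 rats, against 8912, 8388 and 8508 in the vehicle rats (log2 change -1.11 ± 0.11), and the fibrinogen chain Fgb had 11182, 9895 and 10447 in the Wy-14643 rats, against 12677, 13265 and 12988 in the vehicle rats (log2 change -0.31 ± 0.062). The riser was Mug1, a protease inhibitor of the macroglobulin family (0.60 ± 0.17), which was not called without Wy-14643 rat 12 or 14 or vehicle rat 34 or 35.

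Amino acid breakdown was lower in part. Of 54 genes 15 fell and 5 rose, and on the values as deposited 2 fell and 5 rose. Prodh, which opens proline breakdown, had 674, 392.2 and 369 in the Wy-14643 rats, against 1686, 2062 and 1355 in the vehicle rats (log2 change -1.83 ± 0.32), though its second probe set stood at 0. Hal, which removes ammonia from histidine, had 775, 673 and 774 in the Wy-14643 rats, against 2410.2, 1906 and 2236 in the vehicle rats (log2 change -1.54 ± 0.28). Oat, the ornithine aminotransferase, had 2317, 816 and 799.6 in the Wy-14643 rats, against 3052, 3575 and 5750.0 in the vehicle rats (log2 change -1.77 ± 0.41), and rat 12 lay closer to the vehicle rats than to rats 13 and 14. The rises in the list were those of Asns, Psat1 and Phgdh, which make asparagine and serine, and of Bckdha and Agxt, which act in breakdown, and 3 rose without Wy-14643 rat 14 or vehicle rat 33. In glucose metabolism 6 of 40 rose and 7 fell. Tkfc, the triokinase of fructose use, had 715, 993 and 519 in the Wy-14643 rats, against 3486, 2716 and 3298 in the vehicle rats (log2 change -2.11 ± 0.25), and the glucose transporter Slc2a2 had 1402, 693 and 499.9 in the Wy-14643 rats, against 3321, 2343 and 2767 in the vehicle rats (log2 change -1.80 ± 0.34). Pck1, the gatekeeper of gluconeogenesis, had 8243, 2519 and 3610.1 in the Wy-14643 rats, against 8704, 9047 and 8174 in the vehicle rats and did not pass (-1.03 ± 0.33, adjusted p = 0.058), with rat 12 at the vehicle level.

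Enzymes that handle foreign compounds fell more often than they rose. Of 18 phase 1 genes 2 rose and 5 fell, and of 48 genes of conjugation and transport 1 rose and 10 fell. On the values as deposited the falls were 2 and 3, and 4 phase 1 genes rose. Without Wy-14643 rat 12 only 1 phase 1 gene rose, and of the 6 fits with 1 rat left out that one alone called a rise in conjugation and transport. Cyp2c7 had 3991, 2352 and 2507 in the Wy-14643 rats, against 10923, 11257 and 11182 in the vehicle rats (log2 change -1.95 ± 0.23). The male-specific Cyp2c11, a product of pulsed growth hormone, had 8912, 6618 and 6112 in the Wy-14643 rats, against 11123, 10877 and 10923 in the vehicle rats (log2 change -0.62 ± 0.13). Cyp1a2, a target of the AHR receptor, had 5844, 1619 and 2373 in the Wy-14643 rats, against 9185, 11504 and 7714 in the vehicle rats (log2 change -1.72 ± 0.41), with rat 12 again nearest to vehicle. The glucuronosyltransferase Ugt2b1 had 215, 685 and 89.1 in the Wy-14643 rats, against 1109, 1349 and 1989 in the vehicle rats (log2 change -2.50 ± 0.49), and Fmo1, a flavin monooxygenase, fell as well (log2 change -2.07 ± 0.38). The PXR target Cyp3a23-3a1 had 6682, 4253 and 5761 in the Wy-14643 rats, against 5156, 3806 and 5604 in the vehicle rats, with overlapping groups (0.19 ± 0.23, adjusted p = 0.698), and the NRF2 target Nqo1 did not pass either (-0.57 ± 0.57, adjusted p = 0.616). The AHR target Cyp1a1 was listed at 0 on 5 of the 6 arrays. Of 24 NRF2 targets 3 rose, with Me1 shared with the PPARα list, and 0 fell (1 without Wy-14643 rat 13 or 14).

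Bile acid genes fell in 4 of 16 and rose in 0, with the uptake carrier Slc10a1 at 5034, 3073 and 3344 in the Wy-14643 rats, against 5800.2, 5568 and 5775 in the vehicle rats (log2 change -0.61 ± 0.16). That call was lost in 5 of the 6 fits with 1 rat left out and that of Baat in all 6, and 2 genes of the list fell without Wy-14643 rat 13 or any 1 of the vehicle rats. Cyp7a1, the rate-limiting enzyme of bile acid synthesis, had 808, 585 and 967 in the Wy-14643 rats, against 545, 768 and 1214 in the vehicle rats, with a 95 percent interval of -1.46 to 1.35 on the log2 change, so the interval reached past a 2-fold change in both directions. The deiodinase Dio1, which activates thyroid hormone, fell to 175, 102 and 90.0 in Wy-14643 rats, against 204, 409.6 and 234 in vehicle rats (log2 change -1.10 ± 0.33). Of 26 male-biased and growth hormone genes 3 fell and 0 rose (6 fell after median scaling), and of 12 thyroid genes 2 fell (1 without Wy-14643 rat 13 or 14 or vehicle rat 34 or 35) and 1 rose. Of 23 xenobiotic and metabolic nuclear receptors 4 rose, Hnf4a among them (0.70 ± 0.16), and 2 fell, but 1 rose and 0 fell without vehicle rat 35. Of 16 clock genes limma called 0 at 7 days (2 at an unadjusted p under 0.05). Over all genes 7.11 percent rose and 7.52 percent fell, and the counts of these short lists are to be read beside those shares.

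Other large falls were scattered over functions. Mgat4b, which branches N-glycans, had 19.2, 267 and 0 in the Wy-14643 rats, against 1115, 752 and 961 in the vehicle rats (log2 change -4.12 ± 0.84), with rat 13 apart from the other treated rats. Car5a, the mitochondrial carbonic anhydrase of liver, had 35.7, 6.91 and 4.94 in the Wy-14643 rats, against 208, 288 and 320.4 in the vehicle rats (log2 change -3.28 ± 0.44). The pro-apoptotic gene Bmf had 4.95, 0 and 1.81 in the Wy-14643 rats, against 151, 146 and 237 in the vehicle rats (log2 change -3.38 ± 0.52), and the oxidase Nox4 had 30.4, 0 and 0 in the Wy-14643 rats, against 96.4, 146 and 121 in the vehicle rats (log2 change -2.57 ± 0.60). The interferon-related Slfn4 had 33.2, 58.5 and 7.09 in the Wy-14643 rats, against 164, 194 and 201 in the vehicle rats on its brighter probe set (log2 change -2.20 ± 0.50), and the other stood at -0.42. Slc25a38, Car1, Rasgrf1, Adgrb1, Praf2 and Col11a2 were listed at 0 in all 3 treated rats and reached at most 128 in a vehicle rat, so their size is not resolved.

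Markers of the liver's other cells were lower with Wy-14643 in several lists, as was the hepatocyte sum given above. Of the 11 hepatocyte markers 4 fell and 1 rose, so lower markers were not particular to the other cells. Macrophage markers summed to 3382 to 3665 in Wy-14643 rats, against 5357 to 8565 in vehicle rats. Of the 10 measured, 3 fell and 0 rose: C1qa, which had 274, 279 and 229.9 in the Wy-14643 rats, against 349, 784 and 593 in the vehicle rats (log2 change -1.03 ± 0.27), Cd14 (-0.90 ± 0.26) and Csf1r (-0.70 ± 0.17). None of the 3 was called without vehicle rat 34 or without vehicle rat 35, and 1 marker of the list was called without Wy-14643 rat 13 or 14. The Kupffer cell lectin Clec4f had 414, 549 and 478 in the Wy-14643 rats, against 548, 2081 and 1278 in the vehicle rats and did not pass (-1.23 ± 0.42, adjusted p = 0.0759). Stellate and fibroblast markers summed to 3473 to 3703 in Wy-14643 rats, against 4499 to 5267 in vehicle rats, and 2 of 15 fell. Red blood cell markers summed to 5687 to 8140 in Wy-14643 rats, against 11212 to 15103 in vehicle rats, with the globin gene Hbb at 5276, 7562 and 7609.9 in the Wy-14643 rats, against 10613, 12258 and 13799 in the vehicle rats (log2 change -0.85 ± 0.18). Of the 4 red blood cell markers 2 fell, and 1 in each fit with 1 rat left out except that without vehicle rat 33. Endothelial sums overlapped (1928 to 2329 in Wy-14643 rats, 2261 to 3299 in vehicle rats), as did those of bile duct and pancreas markers. Lymphocyte and neutrophil markers were dim in both groups, with Cd3d, Cd3g, Cd8a, Lck and Cd52 mostly at 0, and 2 of 14 lymphocyte and 1 of 3 neutrophil markers fell. These were the T cell and natural killer gene Nkg7 (-1.89 ± 0.46), the pan-leukocyte gene Ptprc (-0.43 ± 0.10, but 0.19 averaged over all its probe sets) and S100a9 (-1.18 ± 0.35), which was listed at 0 in all 3 treated rats. Without vehicle rat 34 none of the lymphocyte markers was called, and the neutrophil call was made only without vehicle rat 33 among the fits with 1 rat left out. Sums of adipocyte (44 to 81, against 24 to 46) and skeletal muscle markers (125 to 169, against 114 to 137) were low in both groups. On the values as deposited no marker of macrophages, stellate cells or red blood cells passed. In whole liver, fewer cells of a type and less RNA per cell cannot be told apart.

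**Figure D4:**
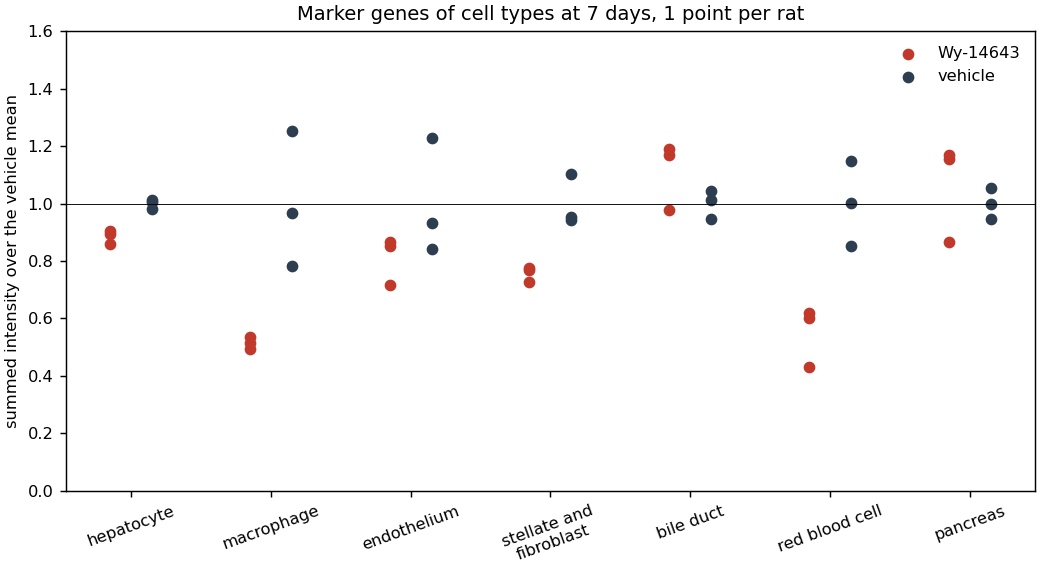
Summed intensity of the markers of 7 cell types at 7 days, divided by the mean of the vehicle rats (y axis), with 1 point per rat, Wy-14643 in red at the left and vehicle in dark blue at the right of each pair. Hepatocyte, macrophage, stellate and red blood cell sums are apart between the groups, and endothelium, bile duct and pancreas sums overlap.

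The 3 treated rats differed in how often each lay nearest to vehicle. The counts cover genes called from these same rats. Genes are not replicates, and the counts were not tested. For each called gene the treated rat nearest to the vehicle mean was counted. Rat 12 was the nearest in 321 of the 740 higher genes (rat 13 in 190, rat 14 in 229) and in 342 of the 763 lower genes in which a single rat was the nearest (rat 13 in 226, rat 14 in 195), the other 20 being tied. Rat 13 differed in another respect, being the highest of the 3 in 33 of the 49 cell cycle genes that were not at 0 in all of them, among them Cdk1, the mitotic kinase, which had 56.8, 233 and 32.5 in the Wy-14643 rats, against 76.7, 14.5 and 36.7 in the vehicle rats.

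The days of treatment were compared next, each against vehicle rats of its own day. At 1 day 715 genes were higher (6.87 percent) and 623 lower (5.98 percent), and at 3 days 638 (6.13 percent) and 605 (5.81 percent). Of the 740 genes higher at 7 days, 338 were also called higher at 1 day (45.7 percent of those at 7 days and 47.3 percent of those at 1 day) and 405 at 3 days (54.7 and 63.5 percent). Of the 783 lower, 239 were lower at 1 day (30.5 and 38.4 percent) and 369 at 3 days (47.1 and 61 percent). A gene called on one day and not on another has not been shown to differ, so the difference of the effects was tested itself. It passed in 202 genes between 7 days and 1 day (1.94 percent: 106 with a higher effect at 7 days, or 1.02 percent, and 96 with a lower one, or 0.922 percent), and in 14 genes between 7 and 3 days (0.134 percent: 6 higher, or 0.0576 percent, and 8 lower, or 0.0768 percent). On probe sets, on which the adjustment ran, 942 were higher (5.94 percent) and 876 lower (5.52 percent) at 1 day, and 882 higher (5.56 percent) and 828 lower (5.22 percent) at 3 days, which is 11.5 and 10.8 percent in all. The differences passed in 297 probe sets against 1 day (1.87 percent, 1.05 higher and 0.819 lower) and 20 against 3 days (0.126 percent, 0.0504 higher and 0.0756 lower).

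The core oxidation genes were not among them. Cyp4a1 changed by 2.68 ± 0.13 at 1 day, 2.78 ± 0.13 at 3 days and 2.75 ± 0.13 at 7 days. Ehhadh changed by 3.00 ± 0.24, 2.73 ± 0.24 and 2.80 ± 0.24 in that order, Eci1 by 3.09 ± 0.075, 3.16 ± 0.075 and 3.04 ± 0.075, and Acot1 by 7.84 ± 0.38, 7.87 ± 0.38 and 8.39 ± 0.38. The lists of peroxisomal oxidation, omega oxidation, mitochondrial oxidation, the carnitine shuttle and thioesterases held 77 measured genes together. Among these limma called 0 in the difference between 7 days and 1 day (14 at an unadjusted p under 0.05). Over all genes 1.94 percent passed that difference, and 2386 of 15866 probe sets had an unadjusted p under 0.05. The count of 0 therefore does not set these lists apart.

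Genes of the cell cycle list were called at the earlier days alone, and some of them passed the test of the difference. At 1 day 29 of 54 measured genes rose and at 3 days 24, with none falling, whereas at 7 days limma called 0 in either direction (6 at an unadjusted p under 0.05). Without Wy-14643 rat 13 limma called 3 lower at 7 days, without vehicle rat 34 or 35 it called 1 lower, and without vehicle rat 33 it called 1 higher. The median log2 change was 1.07 at 1 day, 0.78 at 3 days and 0.079 at 7 days. The summed intensity of the list was 17884 to 19918 in Wy-14643 rats at 1 day, 14770 to 20390 at 3 days and 6875 to 9862 at 7 days, against 7626 to 9431, 7238 to 9569 and 6835 to 8328 in the vehicle rats of these days. The effect was lower at 7 days than at 1 day in 6 of the genes. Pcna, the sliding clamp of DNA replication, changed by 1.33 ± 0.19 at 1 day and 0.16 ± 0.19 at 7 days (difference -1.18 ± 0.27, adjusted p = 0.0428). Aurka, a mitotic kinase, was listed at 0 in all 6 rats at 7 days, whereas at 1 day it had 111, 133 and 288 in Wy-14643 rats, against 0, 10.4 and 0 in vehicle rats (adjusted p of the difference = 0.00341). The mitotic motor Kif22 was likewise at 0 in all 6 rats at 7 days (adjusted p of the difference = 0.00385), against 127, 129 and 162 in Wy-14643 rats at 1 day. Cdkn1a, which encodes the cell cycle inhibitor p21, had 238, 365 and 526 in Wy-14643 rats at 1 day, against 0, 29.7 and 31.1 in vehicle rats, and 225, 322 and 239 in the Wy-14643 rats, against 202, 203 and 268 in the vehicle rats at 7 days (difference -3.32 ± 0.59, adjusted p = 0.012). Its treated values overlapped between the days, and every vehicle rat was higher at 7 days than at 1 day.

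Ccnd1, cyclin D1, had 149.5, 411 and 493 in the Wy-14643 rats, against 633, 295 and 565 in the vehicle rats at 7 days, and Myc had 36.2, 231 and 110.2 in the Wy-14643 rats, against 60.5, 34.1 and 77.1 in the vehicle rats, with rat 13 the highest treated rat in Myc, and neither was called (adjusted p = 0.475 and 0.638). Of 24 genes of p53 response, growth arrest and apoptosis 0 rose and 2 fell at 7 days, the arrest gene Cdkn1b (-0.35 ± 0.09, but 0.021 on the values as deposited) and Phlda3 (-1.03 ± 0.22). The falls numbered 4 without Wy-14643 rat 14, and 1 without Wy-14643 rat 13 or vehicle rat 34 or 35. Over all genes 7.52 percent fell at 7 days, so the 2 falls do not set this list apart.

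Further genes of cell division lay in the difference from 3 days. Aurka and Kif22 had lower effects at 7 days than at 3 days as well. The spindle gene Knstrn (-3.71 ± 0.58), the centromere gene Cenpt (-2.49 ± 0.28), Hmmr (-1.50 ± 0.17), Gpsm2 (-1.15 ± 0.19) and Haus4 (-0.92 ± 0.16) all had lower effects at 7 days than at 3 days. Cenpt also fell at 7 days itself, with 2.74, 0 and 1.45 in the Wy-14643 rats, against 21.8, 32.4 and 10.5 in the vehicle rats (log2 change -1.07 ± 0.20). Gins1, of the replication helicase, had 6.88, 36.8 and 51.3 in the Wy-14643 rats, against 134, 252 and 276 in the vehicle rats at 7 days (log2 change -2.39 ± 0.40) and changed by 0.19 ± 0.40 at 1 day (difference -2.58 ± 0.56).

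Genes outside cell division differed between the days too. Scd2 changed by 0.23 ± 0.16 at 1 day, 0.36 ± 0.16 at 3 days and 4.04 ± 0.16 at 7 days, a difference of 3.81 ± 0.23 from 1 day and 3.67 ± 0.23 from 3 days (adjusted p = 7.87e-06 and 1.22e-05). Its vehicle rats lay close together at 7 days (78, 77.4 and 75.6). Lpl changed by 0.15 ± 0.38, 2.12 ± 0.38 and 2.91 ± 0.38 over the days, with a difference of 2.75 ± 0.53 from 1 day. Apoa4 changed by -0.82 ± 0.56, -2.81 ± 0.56 and -6.25 ± 0.56, with a difference of -5.43 ± 0.79 between 7 days and 1 day (adjusted p = 0.00382). Apoc3 (-0.70 ± 0.089), Cyp2c7 (-1.75 ± 0.33), Tkfc (-1.57 ± 0.35), Apcs (-0.77 ± 0.15) and Slc27a4 (-1.70 ± 0.26) also had lower effects at 7 days than at 1 day. Slc27a4 differed from 3 days too (-1.51 ± 0.26). Hdc, already raised at 1 day (5.09 ± 0.34), had the higher effect at 7 days, with 1797, 1751 and 4253 in Wy-14643 rats, against 855, 467 and 371 in those treated for 1 day, and vehicle at or near 0 (adjusted p of the difference = 0.0436).

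**Figure D5:**
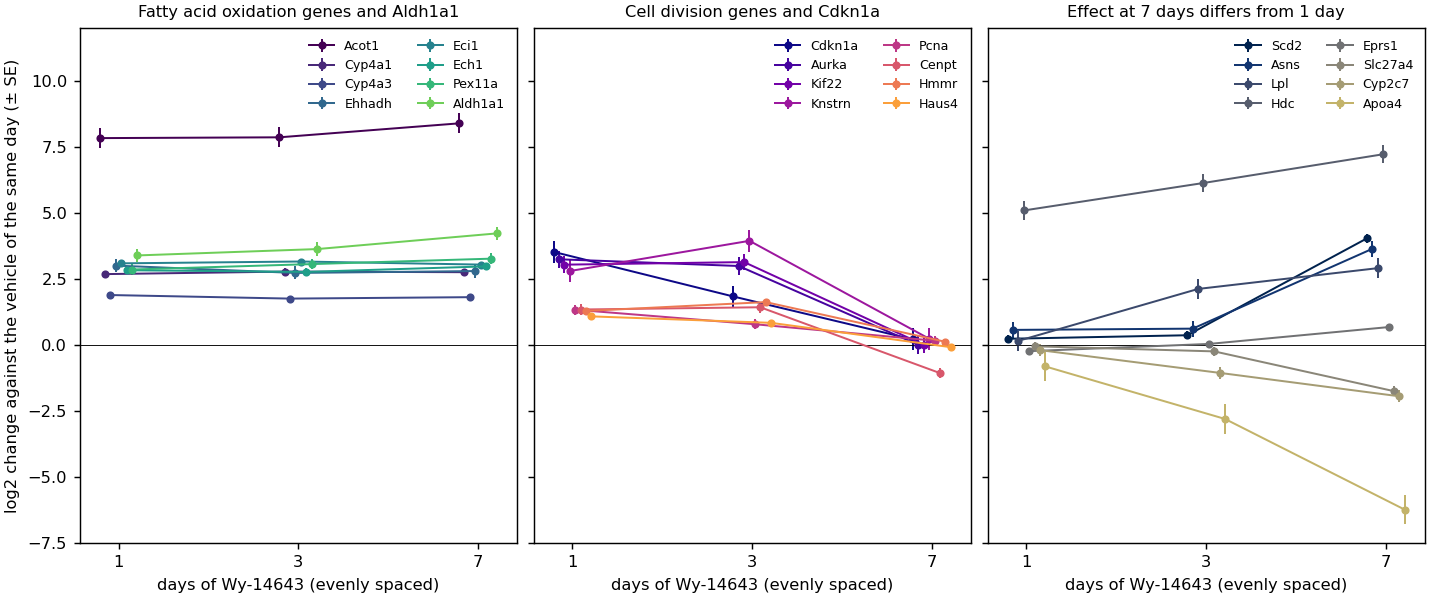
Log2 change against the vehicle of the same day (y axis, with its standard error) at 1, 3 and 7 days (x axis, evenly spaced) for 8 fatty acid oxidation and allied genes, 8 genes of cell division and arrest, and 8 genes whose effect differed between 7 days and 1 day. Acot1 in the first panel is at 7.84 at 1 day and 8.39 at 7 days, the genes of the second panel return to near 0 or, for Cenpt, below it at 7 days, and in the third Scd2, Asns and Apoa4 move farthest between 3 and 7 days.

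Asns, asparagine synthetase and a classic target of the amino acid sensor ATF4, differed from both earlier days. It had 231, 492 and 626 in the Wy-14643 rats, against 19.3, 9.25 and 30.6 in the vehicle rats (log2 change 3.64 ± 0.31, adjusted p = 1.09e-05), with changes of 0.57 ± 0.31 at 1 day and 0.61 ± 0.31 at 3 days. The difference was 3.08 ± 0.43 from 1 day and 3.03 ± 0.43 from 3 days (adjusted p = 0.00321 and 0.0174). A list of ATF4 targets and tRNA synthetases, written after these values were seen, had 14 of 41 genes higher and 0 lower at 7 days (2 lower without Wy-14643 rat 14 and 1 without rat 12), 0 higher and 2 lower at 1 day, and 0 higher and 1 lower at 3 days. In the difference from 1 day 7 of the 41 were higher and 0 lower. Eprs1, the synthetase for glutamate and proline, had 2373, 2287 and 2377 in the Wy-14643 rats, against 1514, 1438 and 1444 in the vehicle rats (log2 change 0.67 ± 0.054) and differed from both earlier days (0.91 ± 0.076 and 0.64 ± 0.076). Slc3a2, the heavy chain of amino acid exchangers, had 1900.3, 2685 and 3017 in the Wy-14643 rats, against 937, 846 and 944 in the vehicle rats (log2 change 1.44 ± 0.17), and its partner Slc7a5 had 70.3, 69 and 71.2 in Wy-14643 rats and was listed at 0 in every vehicle rat. Psat1, of serine synthesis, had 120.2, 297 and 317 in the Wy-14643 rats, against 46.1, 68 and 50.6 in the vehicle rats (log2 change 1.78 ± 0.38), but its difference from 1 day missed the threshold (1.71 ± 0.53, adjusted p = 0.135). Fgf21, which ATF4 also drives, was not called at 1 or 3 days (0.49 ± 0.27 and 0.24 ± 0.27), and its difference from 3 days was 1.67 ± 0.38 (adjusted p = 0.192).

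PFOA, a perfluorinated carboxylic acid that activates PPARα in rats, was given to rats of another strain on another array, with another vehicle, so values are set side by side and the difference was not tested. PFOA changed 1879 of 31042 probe sets (6.05 percent), 1002 higher (3.23 percent) and 877 lower (2.83 percent). On the 15866 probe sets that both arrays hold, 292 were higher with both compounds, which is 28 percent of the 1043 higher with Wy-14643 and 41.4 percent of the 706 higher with PFOA. Another 198 were lower with both, 19.2 percent of 1030 and 34.1 percent of 581. For scale, over all 15866 probe sets Wy-14643 called 6.57 percent higher and 6.49 percent lower, and PFOA called 706 higher and 581 lower. Opposite calls numbered 5 in each direction, 0.708 percent of those higher and 0.861 percent of those lower with PFOA. Acot1 changed by 8.39 ± 0.38 with Wy-14643 and 8.26 ± 0.44 with PFOA, Ehhadh by 2.80 ± 0.24 and 2.98 ± 0.26, Pex11a by 3.27 ± 0.20 and 3.76 ± 0.13, Cyp4a1 by 2.75 ± 0.13 and 1.64 ± 0.27, and Ephx2 by 2.39 ± 0.18 and 4.32 ± 0.95. Cd36 changed by 4.78 ± 0.51 with Wy-14643 and by 1.34 ± 0.33 with PFOA, where it was not called (adjusted p = 0.0705). Scd2 rose with Wy-14643 alone in these calls, with PFOA at -0.038 ± 0.33 (adjusted p = 1). Fasn was above vehicle with Wy-14643 without passing (0.81 ± 0.29) and fell with PFOA (-2.92 ± 0.26). The cholesterol synthesis list had 3 genes higher and 1 lower with Wy-14643, and 0 higher and 10 lower with PFOA. Asns rose with both (3.64 ± 0.31 and 3.54 ± 0.23).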

How the data were processed

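Liver RNA was hybridised to 1-colour Affymetrix arrays, 1 per rat. The deposited values are probe set intensities on a linear scale with some values below 0, and how the authors summarised probes is not given in the sources used here. Per the labels, RNA was purified with Qiagen kits, checked on a Bioanalyzer and biotin labelled. From the deposited intensities, 18 arrays in 6 groups were quantile normalised with limma 3.58.1 in R 4.3.3, values below 0 were raised to 0, and log2(value + 16) was fitted with lmFit and eBayes. Of 15923 probe sets 57 controls were left out. Benjamini-Hochberg adjustment ran over 15866 probe sets, and calls had an adjusted p under 0.05. Of these, 12783 had 1 gene symbol, 312 several and 2771 none in the platform annotation, and only those with 1 were named. The 9 arrays of the perfluorinated acid set (PFOA, PFOS and vehicle, 3 each) were fitted alike, with 31042 probe sets tested. Rats are replicates, and whether they were housed or processed together is not in the labels, so p-values measure the spread between these rats.

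The named genes were a set of key genes, the 20 largest rises and falls, the 10 largest differences each way, and up to 6 called and 2 uncalled members of each of 48 lists, 11 of them of cell markers. The members and lists were chosen with earlier results of these data known. The alternatives were pseudocounts of 1 and 64, median scaling, no normalisation, the dimmest 33.3 percent of probe sets removed, trended robust moderation, a fit of the 2 groups alone (4 for a difference between days), leaving out single arrays, and averaging the probe sets of each gene. On simulated data with 200 planted changes among 15866 probe sets at 7 days, 138 were recovered (9 of 50 at a log2 change of 0.5, 37 of 50 at 1, 43 of 50 at 2 and 49 of 50 at 4) and 11 others were called. The changes were planted outside the dimmest 33.3 percent of probe sets, with normal errors and no other difference between groups. Recovery among dim probe sets was not tested. The number of arrays limits the precision. Figures were drawn with matplotlib 3.10.9.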

Additional observations from a re-analysis of the deposited data

Results flagged for a closer look

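The effect of Wy-14643 at 7 days differed from that at 1 or 3 days, by a test of the difference itself in limma, in the genes below, each given as the effect at 7 days minus the effect at the earlier day on the log2 scale with its standard error. Those listed against 1 day are only some of the 202 genes that passed. No explanation was tested for any of these genes.

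Against 1 day the effect was higher at 7 days for Scd2 (3.81 ± 0.23), Asns (3.08 ± 0.43), Lpl (2.75 ± 0.53), Hdc (2.13 ± 0.48) and Eprs1 (0.91 ± 0.076). It was lower for the secreted and metabolic genes Apoa4 (-5.43 ± 0.79), Cyp2c7 (-1.75 ± 0.33), Slc27a4 (-1.70 ± 0.26), Tkfc (-1.57 ± 0.35), Apcs (-0.77 ± 0.15) and Apoc3 (-0.70 ± 0.089). It was also lower for the cell cycle inhibitor Cdkn1a (-3.32 ± 0.59), in which the vehicle rats were higher at 7 days than at 1 day and the treated rats of the days overlapped, and for the cell division genes Aurka (-3.24 ± 0.47), Kif22 (-3.04 ± 0.44), Gins1 (-2.58 ± 0.56) and Pcna (-1.18 ± 0.27). The fitted sizes of Hdc, Aurka and Kif22 depend on the 16 added to each value, since some of their groups were listed at 0.

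Against 3 days the effect was higher for Scd2 (3.67 ± 0.23), Asns (3.03 ± 0.43) and Eprs1 (0.64 ± 0.076). It was lower for Knstrn (-3.71 ± 0.58), Cenpt (-2.49 ± 0.28), Slc27a4 (-1.51 ± 0.26), Hmmr (-1.50 ± 0.17), Gpsm2 (-1.15 ± 0.19) and Haus4 (-0.92 ± 0.16). Dkk3, Abcg4 and Cpsf1 also passed with a higher effect, and Aurka and Kif22 with a lower one, without values given here.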

How the results depend on the processing

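No paired analysis was possible because the groups compared share no rat numbers. Of the genes called at 7 days and named in the text, 86 kept their direction and call under every alternative that held them and 70 did not. Of the 70, 2 changed direction (Cdkn1b on the values as deposited, Ptprc averaged over all its probe sets). The fit without the dimmest 33.3 percent of probe sets held only 164 of the 186 genes given at 7 days, called or not. Genes it left out were judged on the other alternatives alone. Left on the values as deposited, the probe sets called were 1261 at 7 days, 1045 at 1 day, 4941 at 3 days, 42 and 9 in the differences of 7 days from 1 and 3 days, and 1222 for PFOA. Higher probe sets were then 89.5 percent of the calls at 7 days, 89.2 at 1 day, 98 at 3 days and 82.9 for PFOA, against 50.3, 51.8, 51.6 and 53.3 in the fits reported, and median changes over all probe sets were 0.234, 0.16, 0.497 and 0.106. Median scaling gave 67.2 percent higher at 1 day, 41.3 percent in the difference from 1 day (56.2 reported), and 1184 calls for PFOA. With only the groups of the comparison in the fit, which has fewer samples, the calls were 970 at 7 days, 736 at 3 days and 7 in the difference from 3 days. That difference also had 13 calls with a pseudocount of 1 and 13 with the dimmest 33.3 percent of probe sets removed, against 20 reported, and its share of higher calls was 53.8 percent with a pseudocount of 1, against 40 reported, and 22.2 percent on the values as deposited.

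With each array left out in turn the calls ranged between 1473 and 1970 at 7 days, 1184 (without Wy-14643 rat 03) and 1421 at 1 day, 898 (without Wy-14643 rat 07) and 1763 (without Wy-14643 rat 06, whose dose is not stated) at 3 days, 191 (without vehicle rat 22) and 379 in the difference from 1 day, 9 (without vehicle rat 34) and 46 (without Wy-14643 rat 14) in the difference from 3 days, and 699 and 1599 for PFOA. Of the 2073 probe sets called at 7 days, 1372 were still called without vehicle rat 35. Of the 156 called genes named in the text, 34 lost the call without at least 1 rat of the 7 day groups. Among them, Baat, Amacr and Slc16a1 lost it in all 6 of these fits, and Angptl4, Cd14, Dnm1l, Ncor1, Pex3, Phgdh, S100a9 and Slc10a1 in 5. Among the differences between days listed above with values, 7 kept their call in every alternative that held the gene. The fit without the dimmest probe sets held 15 of the 17 genes given against 1 day and 8 of the 10 against 3 days. The 7 were those of Scd2, Asns, Apoa4, Aurka and Kif22 against 1 day and of Scd2 and Cenpt against 3 days.

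Beside Cdkn1b and Ptprc, the changes of direction fell on genes or days that were not called. On the values as deposited the log2 change at 7 days was 0.13 for Cat, 0.28 for Cyp7a1, 0.29 for Haus4 and 0.021 for Cdkn1b, and with PFOA 0.18 for Scd2. Averaged over all probe sets of the gene, Cdkn1a was at -0.38 and Ptprc at 0.19 at 7 days. Leaving out rats in turn, Cat ranged between -0.053 and 0.029, Cyp7a1 between -0.32 and 0.25, Cd52 between -0.72 and 0.023, Nqo1 between -1.01 and 0.16, Pcna between -0.054 and 0.27, Gins1 at 1 day between -0.10 and 0.40, and Scd2 with PFOA between -0.19 and 0.087. The cause of these shifts was not tested. Dim probe sets limit what can be seen, since values at 0 have no order.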
